A study of Mus musculus with 8 samples.

Results

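The genes of RNA polymerase II (Pol II), of Mediator and of the TBP-associated factors (TAFs) were described in single mouse oocytes with and without deletion of Hira. Members were the rows of the expression table whose gene symbol is Polr2 followed by a letter from a to m, Med followed by a number (with or without a final l), or Taf followed by a number and at most 1 letter. The rule found 65 of 37620 listed genes, of which 13 are Pol II genes, 30 Mediator genes and 22 TAF genes. All oocytes were of strain C57BL/6 and at the MII stage, the ovulated egg that waits in second meiosis for fertilization. The 4 control oocytes, called WT, are labelled Hira f/f, so they carry the floxed Hira alleles but no Cre in their genotype. The 4 KO oocytes are labelled Hira f/f, Gdf9-Cre+, a Cre transgene driven by an oocyte promoter. Sample titles give the tag Gdf9-Cre+ to all 8 oocytes, and the genotype and description labels decided the groups. No label names the age or identity of a female.

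Pol II makes the mRNA of the cell. Its catalytic core is formed by the large subunits encoded by Polr2a and Polr2b, several small subunits are shared with polymerases I and III, and the proteins encoded by Polr2d and Polr2g form a stalk. TFIID, which holds the TATA-binding protein and the TAFs, marks promoters, and Mediator, with its head, middle, tail and kinase modules, connects regulators to Pol II. A fully grown oocyte has stopped transcribing, so its mRNA is a store made during growth. HIRA is a chaperone that places the histone variant H3.3 into chromatin outside DNA replication, and the comparison addresses how the mRNA store of the egg differs when its gene is deleted.

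Expression is given in FPKM, fragments scaled to gene length and to the library total, as deposited. FPKM is scaled for gene length, but the lengths used by the authors are not given. The part of length scaling and of cDNA amplification in differences of level between genes was not tested. FPKM is also relative within a library, so the amount of RNA per oocyte was not measured. Because 1 sample is 1 cell and the females are not named, each genotype counts as 1 sample and no test between genotypes was made. SDs describe spread between oocytes, and no difference below can be assigned to the genotype.

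Library totals, taken from the FPKM value of 1 read, lay between 38032455 and 50208686 reads. KO oocytes had a lower summed FPKM over all listed genes (284336 to 316109, against 341192 to 343705 in WT) and more genes at 1 FPKM or above (7827 to 8512, against 7121 to 7467). The targeted gene Hira had 42, 0, 96 and 1 reads in WT oocytes 1, 2, 4 and 5 and 0, 2, 0 and 2 reads in KO oocytes 1, 3, 5 and 6, so it checks single labels only weakly. All 9 oocyte markers were expressed, with summed levels of 11957 to 17534 FPKM in WT and 7811 to 10162 in KO. Most of the sum was Dppa3, whose mean was 1.68-fold lower in KO, while mean Ooep was 1.702-fold higher. The KO mean was lower for 7 of the 9 markers and higher for 2. The share with a lower KO mean was 43.7% over the 7833 genes that were compared. All KO oocytes lay below all WT oocytes for 3 markers, where the share over those genes was 7.37%. Of 11 cumulus and granulosa cell markers, 9 stayed below 1 FPKM in every oocyte, and Foxl2, Amh, Inha and Cyp11a1 were at 0. Their summed level was 17.8 to 27.9 FPKM in WT and 14.5 to 34.0 in KO, mostly from Cyp19a1, and mean Nr5a2 was 1.33 FPKM in WT and 3.69 in KO. Of 7 blood cell markers, 5 were at 0, and the sum was 0 to 2.17 FPKM in WT and 1.41 to 3.53 in KO. Ptprc was listed at 1.81 FPKM in KO oocyte 1 and 1.16 in KO oocyte 6 and at 0 in the other oocytes, and Cd68 was present in both genotypes. The part of these cells in the differences below was not tested.

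Within each complex the mRNA levels of the subunits differed widely. Of the 65 members, 10 averaged at least 100 FPKM over the 8 oocytes, 22 between 10 and 100, 20 between 1 and 10 and 13 below 1. The 3 most abundant genes held 71.0% of the summed FPKM of the Pol II genes, 63.3% of the Mediator genes and 67.6% of the TAF genes. Genotypes were compared only for genes that reached 1 FPKM in 4 or more oocytes, a condition met by 53 members and by 7833 genes of the table.

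**Figure D1:**
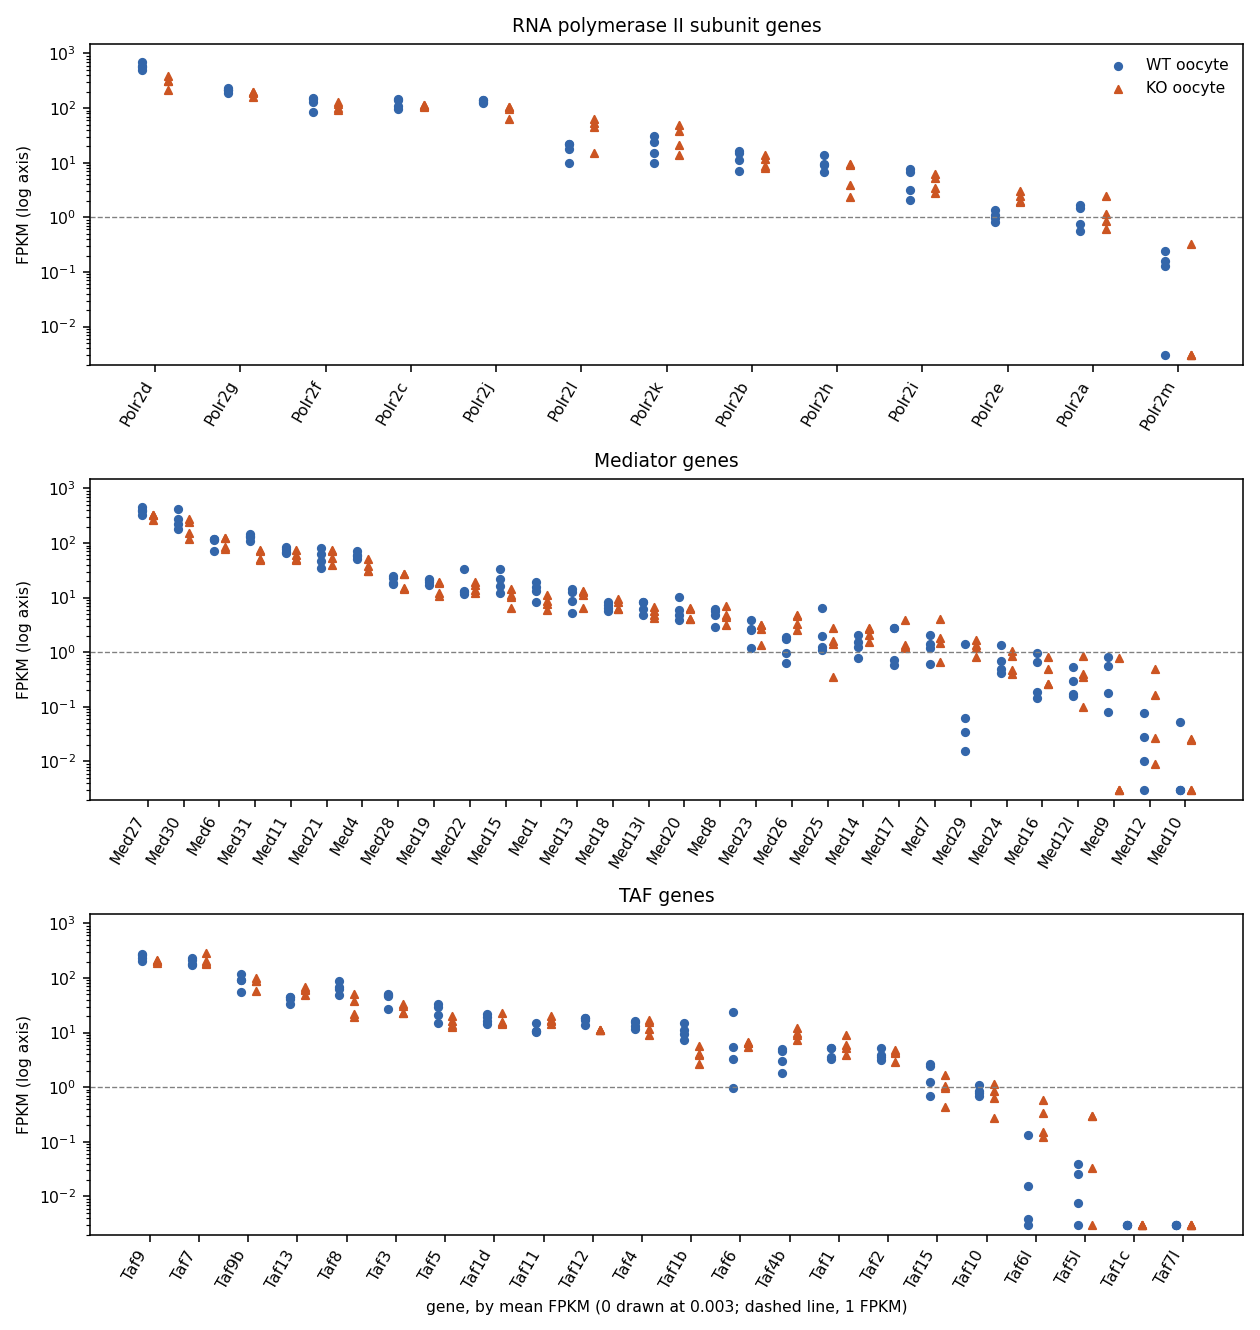
FPKM on a log axis of each of the 65 members in the 8 oocytes, in 3 panels by complex and ordered by mean; circles are WT oocytes, triangles KO oocytes, the dashed line is 1 FPKM and values of 0 are drawn at 0.003. Polr2d, Med27 and Taf9 lead their panels by mean, and Taf1c and Taf7l are at 0 in every oocyte.

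The stalk genes Polr2d and Polr2g ranked first and second among the Pol II genes in all 8 oocytes, while the catalytic subunit gene Polr2a was among the lowest. Polr2d had 503, 601, 563 and 686 FPKM in WT oocytes 1, 2, 4 and 5 and 318, 216, 309 and 388 in KO oocytes 1, 3, 5 and 6. Every KO oocyte was below every WT oocyte, and the mean level was 1.91-fold lower in KO. Polr2g had 214 ± 20.3 FPKM in WT and 187 ± 16.6 in KO (mean ± SD over 4 oocytes, as in all such pairs below), and the ranges overlapped. Polr2a had 1.51, 0.762, 0.572 and 1.69 FPKM in WT and 2.51, 0.620, 1.14 and 0.845 in KO. The genotypes overlapped, and the mean ratio moved from 1.13 to 0.766 without KO oocyte 1. Mean Polr2d was 519-fold above mean Polr2a in WT and 241-fold in KO. Polr2b, which encodes the other large subunit, was 10.9-fold and 8.21-fold above Polr2a and had 12.4 ± 4.31 FPKM in WT and 10.5 ± 2.62 in KO.

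The other Pol II genes spread over the same range. Polr2f, a shared subunit, had 128 ± 31.1 FPKM in WT and 111 ± 16.1 in KO, and Polr2c, part of the assembly platform of the enzyme, 122 ± 23.2 and 111 ± 4.66. Polr2j, the partner of Polr2c in that platform, had 127, 125, 141 and 142 FPKM in WT and 97.9, 103, 64.4 and 105 in KO. Its genotypes did not overlap, and the mean was 1.44-fold lower in KO. Polr2i, at 4.85 ± 2.62 and 4.45 ± 1.57 FPKM, and the shared subunit gene Polr2h, at 9.82 ± 3.03 and 6.21 ± 3.59, overlapped between genotypes. Polr2m encodes Gdown1, a protein bound to a part of Pol II, and had 86 reads over the 8 oocytes, so it was not compared.

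The KO mean was 2-fold or more above WT for 2 of 12 compared Pol II genes, where the share over all compared genes was 18.3%. Both encode small subunits shared with polymerases I and III. Polr2e, whose product contacts the DNA ahead of the active site, had 0.955, 0.835, 1.37 and 1.103 FPKM in WT and 1.90, 2.46, 3.097 and 1.98 in KO. All KO oocytes lay above all WT oocytes, and the mean was 2.21-fold higher. The sums of 507 reads in WT and 1090 in KO have exact 95% Poisson intervals of 464 to 553 and 1026 to 1157. These and the counting intervals below treat reads as independent, although the cDNA was amplified. They cover counting error under that assumption only. The fold was 1.98 without KO oocyte 5, 1.999 with median-of-ratios scaling and 1.59 with quantile normalization. Polr2l, encoding a small zinc-binding subunit, had 9.69, 17.5, 22.4 and 22.4 FPKM in WT and 15, 46.0, 64.4 and 52.7 in KO. KO oocyte 1 lay within the WT range, the other KO oocytes lay above it, and the mean was 2.47-fold higher. Polr2k had 19.9 ± 9.29 FPKM in WT and 30.4 ± 16.0 in KO, with overlap.

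Mediator mRNA was led by Med27 and Med30, which were assigned to the tail, and the scaffold gene Med14 was low. Med27, of the tail, had 458, 408, 331 and 379.7 FPKM in WT and 329, 331, 320.2 and 269 in KO, and ranked first among Mediator genes in all 8 oocytes. WT oocyte 4 overlapped KO, and the mean was 1.26-fold lower in KO. Med30 had 411, 279, 223 and 183 FPKM in WT and 241, 279, 151 and 119 in KO. Its WT oocytes alone spanned more than the difference of the means, 274 and 197. Med6, of the head, had 106 ± 23.8 and 103 ± 25.8 FPKM. Med14, the scaffold that joins head, middle and tail, had 1.40 ± 0.530 FPKM in WT and 2.27 ± 0.595 in KO, so that Med27 was 281-fold and 138-fold above it.

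Among the 24 compared Mediator genes, the KO mean exceeded 2-fold of WT for Med26 and Med29 and was below WT by more than that factor for Med31. The shares over all compared genes were 18.3% higher and 6.84% lower. Med26, whose product links Mediator to elongation factors, had 0.983, 1.74, 1.89 and 0.640 FPKM in WT and 2.58, 3.30, 4.55 and 4.77 in KO. All KO oocytes were above all WT oocytes, at a 2.89-fold higher mean, and the sums were 731 reads (679 to 786) in WT and 2027 (1940 to 2117) in KO, with exact 95% Poisson intervals. Med31, a small and conserved subunit of the middle module, had 108, 135, 129 and 149 FPKM in WT and 74.7, 70.4, 51.6 and 49.8 in KO. All KO oocytes were below all WT oocytes and the mean was 2.11-fold lower, but 1.99-fold lower without KO oocyte 6 and 1.83-fold lower when the oocytes were scaled to the same sum of FPKM.

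Med29, a tail gene, differed by 3.24-fold, and 1 WT oocyte decided the size. Its reads were 79, 2, 1 and 3 in WT oocytes 1, 2, 4 and 5 and 74, 59, 94 and 49 in the KO oocytes. WT oocyte 1, at 1.43 FPKM, lay among the KO oocytes, which held 0.808 to 1.66 FPKM, while the other WT oocytes held at most 0.0616. Without WT oocyte 1 the ratio of mean FPKM was 33.5, and the ratio of read rates, from 276 and 6 reads, was 35.4 with an exact 95% counting interval of 16.0 to 97.2. This oocyte was left out because of its value. The interval covers counting error only and not the spread between oocytes, so it does not measure a difference between genotypes. Without WT oocyte 1, Med29 would not meet the condition of 1 FPKM in 4 oocytes.

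**Figure D2:**
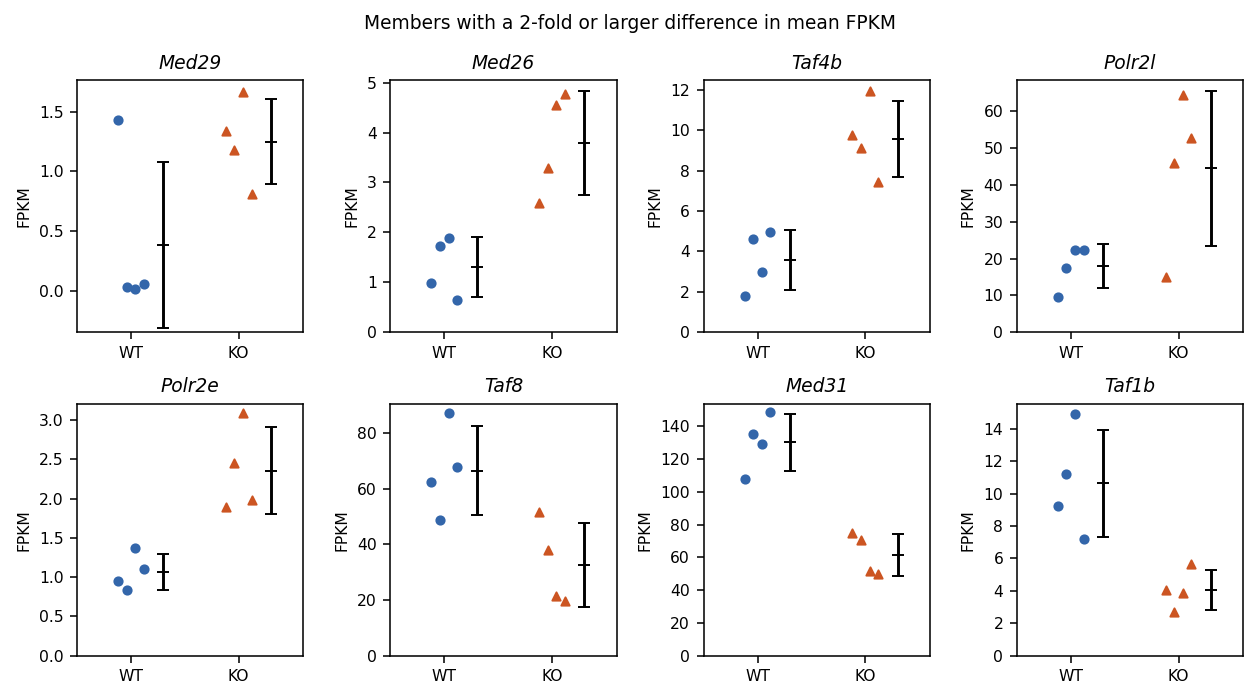
FPKM in each oocyte of the 8 members whose mean differed by at least 2-fold, with circles for WT, triangles for KO and bars for the mean ± SD of 4 oocytes. The genotypes are apart for Med26, Taf4b, Polr2e, Med31 and Taf1b, whereas Med29 has 1 WT oocyte at 1.43 FPKM, Polr2l 1 KO oocyte at 15 FPKM and Taf8 1 KO oocyte at 51.7 FPKM within the range of the other genotype.

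The middle and tail genes went both ways, with a lower KO mean for 4 of 7 and 4 of 8 compared genes, where the share over all compared genes was 43.7%. Med15, Med1 and Med4 were among the lower ones, without reaching 2-fold over all oocytes as deposited. Med15, a tail subunit that binds activators, had 33.3, 21.6, 16.4 and 12.4 FPKM in WT and 11.4, 14.5, 10.3 and 6.44 in KO, a 1.97-fold lower mean with overlap. It was 1.58-fold lower without WT oocyte 1, but at least 2-fold lower without WT oocyte 4, WT oocyte 5, KO oocyte 1 or KO oocyte 3. Median-of-ratios scaling and quantile normalization also brought it to at least 2-fold. Med1, the subunit bound by nuclear receptors, was 1.69-fold lower, at 14.1 ± 4.48 and 8.36 ± 2.11 FPKM, and Med4, of the middle module, 1.59-fold lower, at 60.2 ± 8.39 and 37.8 ± 9.64. Both overlapped between genotypes. All 7 head genes stayed within 2-fold and overlapped, with differences from -0.33 to 0.13 on the log2(FPKM + 1) scale. Most genes did so, as 5863 of all 7833 compared genes stayed within 2-fold and 6209 overlapped. The 9 genes assigned to the middle module had 7 compared members, with a median difference of -0.42 and a range from -1.08 for Med31 to 1.06 for Med26.

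The remaining Mediator genes overlapped between genotypes, as did 6209 of all 7833 compared genes, and several had 1 oocyte that stood apart. In the head, Med11 had 74.2 ± 8.91 FPKM in WT and 59.2 ± 12.1 in KO, and Med18, Med20 and Med8 had means between 4.89 and 7.47 FPKM in both genotypes. Med22 had 34.1, 11.9, 13.0 and 12.9 FPKM in WT and 16.9, 19.2, 13.99 and 12.1 in KO, so only WT oocyte 1 was high. Med17, which organizes the head, had 0.707, 0.583, 2.76 and 2.81 FPKM in WT and 1.25, 1.19, 1.34 and 3.85 in KO, and each genotype held both low and high oocytes. In the middle module, Med21 had 55.9 ± 19.9 and 59.3 ± 15.6 FPKM, Med19 20.04 ± 2.29 and 15.1 ± 4.52, and Med7 1.33 ± 0.603 and 2.01 ± 1.44. In the tail, Med28 had 20.8 ± 3.49 and 21.0 ± 7.35 FPKM and Med23 2.56 ± 1.097 and 2.59 ± 0.834. Med25 had 6.43, 2.01, 1.22 and 1.11 FPKM in WT and 1.44, 2.79, 0.348 and 1.58 in KO, and its ratio of means went from 0.571 to 1.06 without WT oocyte 1.

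The kinase module was represented by Med13 and its paralogue Med13l. Med13 had 10.3 ± 4.13 FPKM in WT and 11.0 ± 3.15 in KO, and Med13l 6.94 ± 1.74 and 5.36 ± 1.17, with Med13 above Med13l in 7 of 8 oocytes. Neither Med12 nor Med12l was compared. Med12, whose product activates the kinase, summed to 37 WT and 230 KO reads, and KO oocyte 1 gave 167 of the latter. Med12l summed to 547 and 758. Of the partners of these subunits, the kinase gene Cdk8 had 5.12, 8.10, 7.73 and 10.7 FPKM in WT and 9.33, 18.9, 27.6 and 16.6 in KO, 2.29-fold higher with KO oocyte 1 inside the WT range. Its paralogue Cdk19 had at most 0.0274 FPKM in WT and 0.00398, 0.552, 0.367 and 0.374 in KO. Cyclin C, encoded by Ccnc, had 3.09 ± 0.794 and 2.23 ± 0.708 FPKM.

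The TAF genes were led by Taf9 and Taf7. Taf9, a histone-fold subunit of TFIID and of the coactivator complex SAGA, had 203, 262, 234 and 277 FPKM in WT and 184, 206, 212 and 204 in KO. WT oocyte 1 lay in the KO range, and the mean was 1.21-fold lower in KO. In GENCODE M21, 73.8% of the exonic bases of Taf9 also belong to Ak6 on the same strand, a gene listed at 0.625 to 3.30 FPKM, so the Taf9 level is uncertain. Taf7, a regulator of TAF1, had 199 ± 28.9 FPKM in WT and 215 ± 46.8 in KO.

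Paralogous TAF genes differed in level, and Taf4b differed between genotypes. Taf4, a core TFIID subunit, had 13.1, 11.9, 16.3 and 15.3 FPKM in WT and 8.997, 16.9, 15.8 and 11.7 in KO. Taf4b, its gonad-enriched paralogue, which is needed for oocyte development in mice, had 1.79, 4.63, 2.98 and 4.95 FPKM in WT and 9.75, 9.10, 11.96 and 7.45 in KO. Taf4b spans chr18:14783245-14900359 on the plus strand in GENCODE M21 on GRCm38. All KO oocytes lay above all WT oocytes for Taf4b, and its mean was 2.66-fold higher, the largest difference of any compared member on the log2(FPKM + 1) scale at 1.25. Taf4 overlapped between genotypes, and mean Taf4 was 3.94-fold above mean Taf4b in WT and 1.40-fold in KO. Taf9 was 2.72-fold above Taf9b in WT and 2.44-fold in KO, with 89.5 ± 25.4 and 82.4 ± 17.9 FPKM of Taf9b. Taf7l, the germ-cell paralogue of Taf7, was listed at 0 in all 8 oocytes. The SAGA paralogues Taf5l and Taf6l were low, with 10 and 34 reads in WT and 85 and 269 in KO, against 24.5 ± 8.25 and 15.7 ± 3.39 FPKM of Taf5.

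Among the other TFIID genes, Taf8 passed 2-fold. Taf8, whose product carries TAF10 into TFIID, had 62.3, 48.7, 87.0 and 67.8 FPKM in WT and 51.7, 37.8, 21.5 and 19.4 in KO. KO oocyte 1 lay within the WT range, and the mean was 2.04-fold lower. Leaving out WT oocyte 4, KO oocyte 5 or KO oocyte 6 brought it to 1.83-fold, 1.83-fold or 1.79-fold, and scaling to the same sum of FPKM to 1.78-fold. The histone-fold partners Taf11 and Taf13 were 1.43-fold and 1.44-fold higher in KO. Taf13 had 41.9, 44.5, 45.4 and 33.0 FPKM in WT and 67.7, 61.9, 59.4 and 47.9 in KO, with no overlap, while Taf11 overlapped. Taf12, the histone-fold partner of TAF4, had 13.9, 17.3, 18.6 and 18.7 FPKM in WT and 11.4, 11.3, 11.1 and 11.1 in KO, 1.53-fold lower with no overlap. Taf3, a reader of methylated histone H3, and Taf5, a scaffold of TFIID, were 1.58-fold and 1.57-fold lower with overlap.

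The direction of Taf6 depended on 1 oocyte. It had 23.4, 5.51, 3.26 and 0.946 FPKM in WT and 6.40, 6.34, 5.33 and 6.77 in KO. The mean was 1.33-fold lower in KO with all oocytes and 1.92-fold higher without WT oocyte 1, and the WT oocytes spanned the whole KO range. On the log2(FPKM + 1) scale, where the high oocyte weighs less, the difference of means was 0.25 with all oocytes, so its sign is opposite to that of the fold. Taf1, also of TFIID, had 4.32 ± 1.01 and 5.98 ± 2.14 FPKM, and Taf2 3.97 ± 0.933 and 4.08 ± 0.787.

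TAFs of other complexes are covered by the same naming. Taf1b, a subunit of SL1 that acts with polymerase I, had 9.25, 11.2, 14.9 and 7.18 FPKM in WT and 4.04, 2.68, 3.86 and 5.65 in KO. All KO oocytes were below all WT oocytes, the mean was 2.63-fold lower, and the difference of -1.19 was the lowest of any compared member. Taf1d, also of SL1, had 17.8 ± 3.14 and 16.8 ± 3.95 FPKM, and Taf1c was listed at 0 in all 8 oocytes. Taf15, an RNA-binding protein gene of the FET family, had 1.76 ± 0.951 and 1.04 ± 0.506 FPKM.

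The other members past 2-fold are given by their GENCODE M21 positions on GRCm38. Med29 spans chr7:28386146-28392708 and Polr2l chr7:141471860-141475132, both on the minus strand. Med26 spans chr8:72494561-72548270, Polr2e chr10:80035949-80039795, Med31 chr11:72211724-72215592 and Taf8 chr17:47483364-47502292, all on the minus strand. Taf1b spans chr12:24498359-24558539 on the plus strand.

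Promoters were read to set higher and lower genes side by side. Taf4b, higher in KO with no overlap, was left out by its genome position, so the higher genes shown lack it. The promoters kept belong to the other members with at least 2-fold different means, no overlap between genotypes and an entry in the RefSeq table. Each is 300 bases on GRCm38.p6, from 250 before to 50 after the gene start, 5′ to 3′ on the gene's strand, in lower case with searched motifs in capitals. Med26 is at chr8:72548261-72548560 and Polr2e at chr10:80039610-80039909, both on the minus strand and both higher in KO. Med31 is at chr11:72215543-72215842 on the minus strand and Taf1b at chr12:24498331-24498630 on the plus strand, both lower in KO.
Med26: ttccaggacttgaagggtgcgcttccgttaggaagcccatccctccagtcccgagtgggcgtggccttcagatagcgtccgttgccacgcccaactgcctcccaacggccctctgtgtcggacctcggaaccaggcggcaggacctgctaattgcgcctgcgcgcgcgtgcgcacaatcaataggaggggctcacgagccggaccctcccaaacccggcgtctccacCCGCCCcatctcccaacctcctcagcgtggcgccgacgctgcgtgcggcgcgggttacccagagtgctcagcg
Polr2e: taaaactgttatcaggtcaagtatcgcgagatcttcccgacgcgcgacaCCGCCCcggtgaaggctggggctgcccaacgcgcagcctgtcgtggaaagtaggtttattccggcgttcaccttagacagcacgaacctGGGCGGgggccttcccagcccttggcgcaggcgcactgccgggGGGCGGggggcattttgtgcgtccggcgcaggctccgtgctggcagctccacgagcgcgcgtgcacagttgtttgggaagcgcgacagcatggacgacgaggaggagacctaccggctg
Med31: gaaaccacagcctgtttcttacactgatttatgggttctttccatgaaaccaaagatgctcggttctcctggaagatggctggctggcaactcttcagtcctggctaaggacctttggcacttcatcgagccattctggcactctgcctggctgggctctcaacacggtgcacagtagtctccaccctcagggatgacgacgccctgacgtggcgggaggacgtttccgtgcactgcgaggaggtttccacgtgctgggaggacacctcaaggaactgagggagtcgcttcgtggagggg
Taf1b: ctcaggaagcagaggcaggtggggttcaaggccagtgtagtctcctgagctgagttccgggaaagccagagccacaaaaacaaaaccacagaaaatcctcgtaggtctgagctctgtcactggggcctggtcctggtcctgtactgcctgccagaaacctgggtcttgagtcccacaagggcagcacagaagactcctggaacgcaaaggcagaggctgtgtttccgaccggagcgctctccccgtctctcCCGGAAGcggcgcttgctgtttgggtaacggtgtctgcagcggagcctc

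Motifs were searched on both strands. They were the TATA box, written TATAAA, the binding motif of the factor NF-Y, written CCAAT, the GC box of Sp factors, written GGGCGG, and a motif of ETS factors, written CCGGAAG. None of them contains another, and longer motifs of NRF1 and YY1, also searched, had no match in these windows. GGGCGG was found 3 times in the Polr2e window and once in that of Med26, on the opposite strand from base 228, and CCGGAAG once in that of Taf1b, from base 252. The Med31 window held none of them. Among the other members past 2-fold, GGGCGG was also in the windows of Med29 and Polr2l, higher in KO, and of Taf8, lower in KO. Over the 67 RefSeq windows of 55 members, 67.2% held GGGCGG, against 59.6% of 7383 windows of compared genes and 35.7% of all 32851 windows. The step that left out chromosome 18 was applied to the members' windows only. CCGGAAG was in 29.9%, against 18.2% and 8.86%, TATAAA in 14.9%, against 8.24% and 13.6%, and CCAAT in 34.3%, against 39.3% and 37.4%. A match describes letters only, and it is not known which start site the oocytes used.

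Of the 12 members that were not compared, Taf1c and Taf7l had no read. Med10 was above 0 in 3 oocytes, at 0.0538 FPKM or less. Over all oocytes Taf5l had 95 reads, Med9 212, Med12 267 and Taf6l 303. Med16, Med24, Med12l and Taf10 had 762 to 1660 reads and did not reach 1 FPKM in 4 oocytes, although Med24 and Taf10 exceeded that level in some. These low values carry limits of annotation. In GENCODE M21, 92.8% of the exonic bases of Med10 also lie in Gm26819 and 45.9% of those of Taf10 in Ilk, both on the opposite strand, and whether reads were counted by strand is not stated. At least 10% of the exonic bases were shared in 17 members, among them Med31 at 26.3%, with 4930563E22Rik, listed at 0, and Med26 at 12.7%, with Gm17435. Their part in the levels was not tested.

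Differences of 2-fold or more were not more frequent among the members than among all compared genes. Mean FPKM was higher in KO by that margin for 5 of 53 compared members, where the share over all 7833 compared genes was 18.3%, and lower for 3 of 53, where it was 6.84%. The balance of all genes moved with scaling, to 23.6% higher and 4.56% lower under equal sums of FPKM, 15.3% and 9.10% with median-of-ratios scaling, and 13.3% and 11.3% with quantile normalization. All 4 KO oocytes lay above all WT oocytes for 4 members, Med26, Polr2e, Taf4b and Taf13, with a share over all genes of 13.4%, and below for 5, Med31, Polr2d, Polr2j, Taf12 and Taf1b, with a share of 7.37%. Med26 and Polr2e were below 1 FPKM in some WT oocytes and above it in every KO oocyte. Their entry among the compared genes thus rests on the KO oocytes, where they are high, and the same filter shaped the shares over all genes. A lower mean in KO, of any size, was found for 33 of 53 members, with a share of 43.7% over all compared genes.

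The typical member was somewhat lower in KO than the typical gene. The median KO minus WT difference in log2(FPKM + 1) was -0.10 over the 53 members and 0.10 over all compared genes. It was -0.15 over 12 Pol II genes, -0.06 over 24 Mediator genes and -0.10 over 17 TAF genes. Equal sums of FPKM moved the median of all genes by 0.17 and that of the members to 0.11, and quantile normalization moved the former by -0.17. Relative to the median of all compared genes, the members' median lay at -0.20 as deposited and between -0.26 and -0.12 over the alternatives. These are descriptions of 8 libraries, and a lower summed FPKM in KO goes with them, whose part in the medians was not tested.

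**Figure D3:**
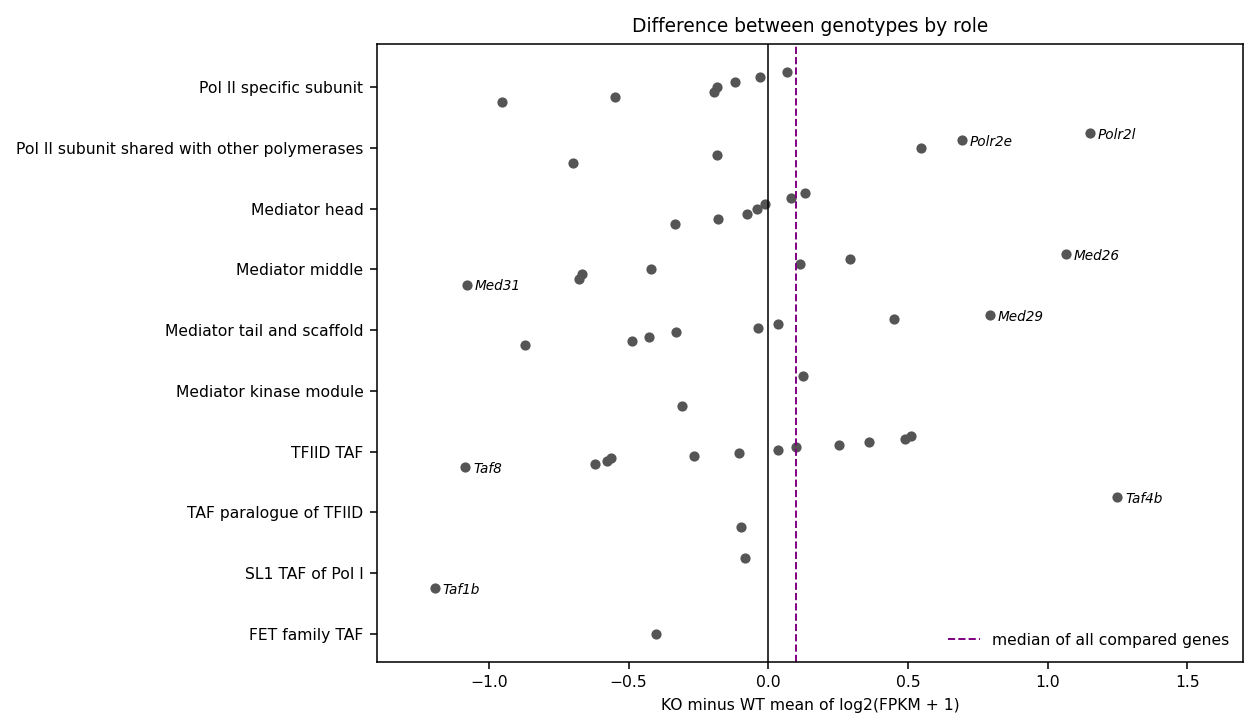
KO minus WT difference in mean log2(FPKM + 1) of the 53 compared members, each a point, by role; the solid line is 0 and the dashed line the median of all compared genes, 0.10. Names are given to the members with at least 2-fold different mean FPKM, from Taf1b at -1.19 to Taf4b at 1.25.

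Summed over its genes, each complex had less FPKM in KO. The 13 Pol II genes summed to 1189 to 1326 FPKM in WT and 816 to 1014 in KO, without overlap and with a ratio of means of 0.725. Polr2d alone made up 41.4% of the Pol II sum. Its mean went from 588 FPKM in WT to 308 in KO, while the mean Pol II sum went from 1253 to 909, so most of that difference was Polr2d. Mediator sums were 1126 to 1410 FPKM in WT and 820.3 to 1055 in KO, also without overlap, at a ratio of 0.770, and TAF sums 730.5 to 842 and 679 to 801, with overlap, at 0.903. Med27, Med30 and Med31 had means of 394, 274 and 130 FPKM in WT and 312, 197 and 61.6 in KO. The mean Mediator sum was 1237 and 953, so most of its difference lay in these genes. Of the compared genes, 4 of 12 Pol II and 10 of 24 Mediator genes had a higher mean in KO. For all listed genes the ratio of summed FPKM was 0.864.

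**Figure D4:**
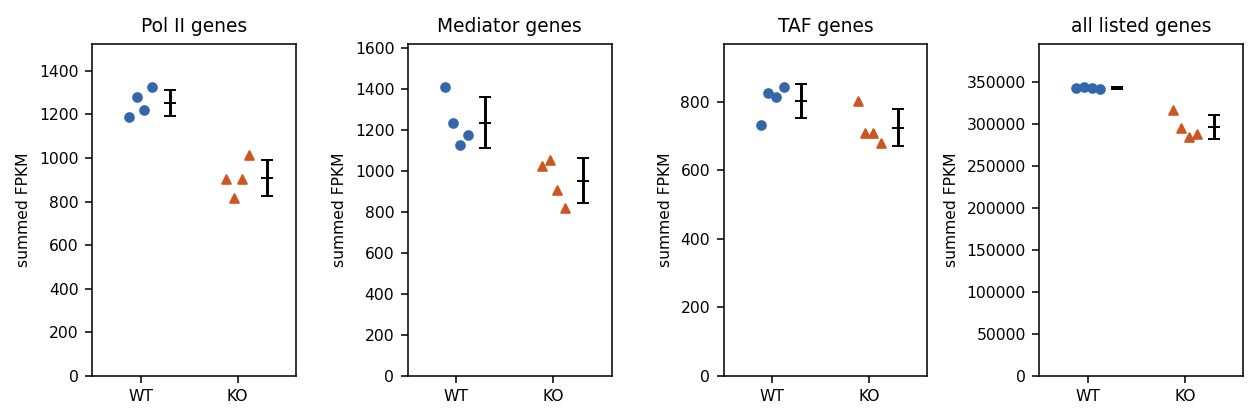
Summed FPKM of the Pol II, Mediator and TAF genes and of all listed genes in each oocyte, with circles for WT, triangles for KO and bars for the mean ± SD of 4 oocytes. KO oocytes lie below WT oocytes in the Pol II, Mediator and all-gene panels, and the TAF panel overlaps.

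The oocytes were not alike within a genotype. Of the 53 compared members, 13 were highest in WT oocyte 1 and 13 were lowest in it. The 13 highest included Med15, Med20, Med22, Med25, Med30 and Taf6, and the lowest Polr2k, Polr2l and Taf4b. Over all compared genes WT oocyte 1 was the highest for 17.2%. WT oocyte 5 was highest for 12 members, among them Polr2d, Polr2g and Med31, and for 9.38% of all compared genes. The median coefficient of variation over the 8 oocytes was 40.02% for Pol II genes, 35.9% for Mediator genes and 24.7% for TAF genes. It was taken over both genotypes together, so differences between genotypes enter it.

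**Figure D5:**
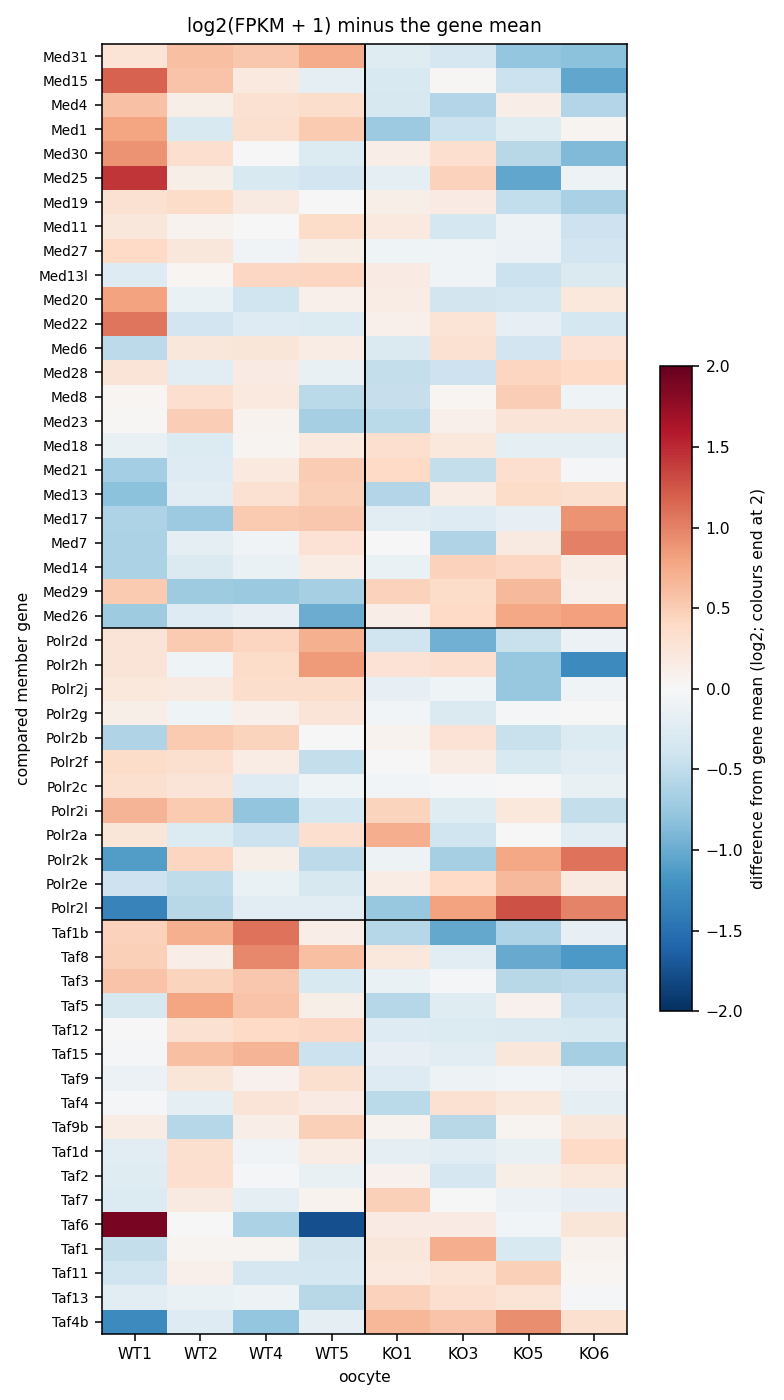
Heat map of log2(FPKM + 1) minus the gene's mean over 8 oocytes for the 53 compared members, with 1 row per gene, by complex and then by difference, and 1 column per oocyte; red is above and blue below the mean. Colours end at 2 above or below the mean, and WT oocyte 1 holds deviations in both directions, such as Taf6 at 23.4 FPKM and Polr2l at 9.69 FPKM.

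Level and gene length were weakly related among the members. Across the 63 members above 0, Spearman's rho between exon length in GENCODE M21 and mean FPKM was -0.36 and Pearson's r of the log10 values -0.35. Across 7624 compared genes with a length rho was -0.07. These are correlations across genes of the same libraries, which are not independent replicates, and FPKM holds length in its denominator.

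Genes that work with these complexes were described from lists chosen with results of these data known, and the background shares given above apply to them too. The first list held 19 compared TBP family and general transcription factor genes, of which 3 passed 2-fold upward and 1 downward in KO, and their median difference was 0.15. Ccnh, the cyclin of the TFIIH kinase, went from a WT mean of 2.36 ± 0.776 FPKM to a KO mean of 11.6 ± 4.29, a 4.94-fold step. Tbpl1, a TBP-like factor, was 2.77-fold and Gtf2e2, of TFIIE, 2.53-fold higher. Gtf2h3, of TFIIH, had 35.6 ± 7.44 and 12.4 ± 5.94 FPKM, 2.87-fold lower. None of these 4 overlapped between genotypes. Tbpl2, the TBP paralogue of mouse oocytes, had 26.8 ± 2.65 and 31.2 ± 6.76 FPKM and Tbp 3.45 ± 1.37 and 4.69 ± 0.610, so Tbpl2 mRNA was the higher in both genotypes.

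Pausing and elongation genes were mostly within 2-fold. Past that margin lay 2 of 23 upward and 1 downward, and the median was -0.01. Cdk13, a kinase of the Pol II tail, was 2.51-fold and the elongation factor gene Ell2 2.09-fold higher, both without overlap, and Nelfa, of the pausing complex NELF, 2.25-fold lower with overlap. Tcea3, a form of the factor TFIIS, was 1.57-fold higher without overlap. The 8 compared assembly and phosphatase genes had a median of -0.20, with 3 past 2-fold upward and 1 downward. The GTPases of Pol II assembly went apart, as Gpn2 had 62.4 ± 7.42 FPKM in WT and 22.2 ± 5.32 in KO without overlap, and Gpn1 was 3.96-fold higher with overlap. The phosphatase genes Ctdspl and Ctdsp1 were 2.63-fold and 2.01-fold higher with overlap.

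Subunits found only in polymerases I and III had a median difference of 0.42 over 12 compared genes, 3 of them past 2-fold upward in KO and 0 downward. Polr3b, a large subunit of polymerase III, was 3.48-fold higher and Polr1d, shared by polymerases I and III, 2.08-fold, both without overlap. Znrd1, of polymerase I, was 2.07-fold higher with overlap and Twistnb, also of polymerase I, 1.59-fold. Whether these lists differ from Pol II was not tested.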

How the data were processed

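Single MII oocytes were profiled after SMARTer cDNA amplification with ERCC spike-in RNA, per the labels' protocols. The authors deposited FPKM for 37620 Ensembl genes. Tools in the submitters' processing notes are TopHat2 2.0.2, Bowtie2 and Bowtie 0.12.8, beside HTSeq, the build mm9 and edgeR 3.1.10, and neither their roles nor the annotation release, gene lengths or use of strand in counting are given in the sources used here. ERCC values were not used here.

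A table of gene names gave symbols for 32897 of the identifiers. Whole reads were recovered for all 65 members within 0.001 reads, from the FPKM of 1 read and the length nearest GENCODE M21 (GRCm38) for which all values were whole. The GENCODE length itself gave whole reads for 29 members, and in 11 members all counts shared a factor, so that a shorter length with fewer reads would suit as well; no read count of those is given. Folds divide mean FPKM of the genotypes. Differences subtract the WT mean of log2(FPKM + 1) from the KO mean and understate changes of low genes. Counts of members past 2-fold and medians were taken under 17 alternatives, and the computation was tested on simulated data. Values named are those of members past 2-fold, the 3 most abundant members of each complex, paralogue pairs and low members, and up to 4 genes per partner list with the largest differences; further members were added after their values were seen. Members and lists were chosen with earlier results of these data known. Coordinates come from GENCODE M21 and promoters from RefSeq on GRCm38.p6, with none carried over from mm9. Alternatives changed the pseudocount, the filter, the scaling, the group summary or the set of oocytes. Python 3.11.15, pandas 2.3.3, numpy 2.4.6 and scipy 1.17.1 were used.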

Additional observations from a re-analysis of the deposited data

Results flagged for a closer look

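In the 106 sets of 4 oocytes formed by the 53 compared members and the genotypes, 10 had 1 oocyte set apart from the other 3 by more than 0.829 of the whole range of log2(FPKM + 1), a limit that chance passes in about 1 in 20 independent, normally distributed sets. These sets share the same 8 oocytes, and no chance rate was computed for them. WT oocyte 1 was the distant one for Med22, at 34.1 FPKM against 11.9 to 13.0, for Med29, at 1.43 against 0.0155 to 0.0616, and for Med6, at 70.3 against 113 to 120.5. KO oocyte 6 was distant for Med17, at 3.85 FPKM against 1.19 to 1.34, for Med27, at 269 against 320.2 to 331, and for Taf1d, at 22.7 against 14.4 to 15.3. The remaining ones were Polr2g in KO oocyte 3, at 162 FPKM against 192 to 197, Polr2j in KO oocyte 5, at 64.4 against 97.9 to 105, Taf11 in WT oocyte 2, at 15.1 against 10.4 to 10.8, and Taf3 in WT oocyte 5, at 26.9 against 46.0 to 50.3.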

How the results depend on the processing

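The 8 members past 2-fold kept the direction of their log2 difference in all 17 alternatives. They were picked by their difference in these same values, so this was in part fixed in advance. For Med26, Polr2e, Taf4b, Med31 and Taf1b, whose genotypes did not overlap, no choice of oocytes could turn the direction. The count of members at least 2-fold higher in KO was 5 of 53, where the share over all genes was 18.3%. It was 8 of 63 under no filter (all genes 36.9%) and 2 of 40 at a mean FPKM of at least 5 (all genes 12.8%). Without single oocytes it was 4 to 5 (all genes 17.4% to 19.9%). The count at least 2-fold lower was 3 (all genes 6.84%). It was 1 under equal sums of FPKM (4.56%), 5 with median-of-ratios scaling (9.10%) and 6 with quantile normalization (11.3%). Without single oocytes it was 2 to 6 (5.99% to 8.27%). The median over all compared members was -0.10, with 0.11 under equal sums and -0.24 with median-of-ratios scaling, and the TAF median was 0.11 under equal sums. The Mediator median was -0.32 for mean FPKM of at least 5. The Hira difference of -0.17 was -0.89 with a pseudocount of 0.1. Without single oocytes the medians ranged from -0.18 to -0.09 over all members, -0.20 to -0.05 for Pol II, -0.18 to -0.07 for Mediator and -0.19 to -0.02 for TAFs, and the Hira difference from -0.23 to -0.08. The cause of these shifts was not tested. A replicate block was formed by the oocytes numbered 1 and 5 in both genotypes. With it, 6 members were at least 2-fold lower, where the share over all genes was 10.8%. Deviations of same-numbered oocytes correlated at 0.03 and 0.07 over 7833 genes, so the data give no sign that the numbers pair them. Leaving out 1 oocyte moved a fold by more than 1.5 times for Med7, Med17, Med25, Med29 and Taf6; without KO oocyte 6 Med7 went from 1.52 to 1.01 and Med17 from 1.11 to 0.734, and without WT oocyte 1 Med25 went from 0.571 to 1.06.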
